A study of Mus musculus with 30 samples.

Results

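The genes described here are 9 negative regulators of MAP kinase signalling, grouped as brakes on ERK, though Dusp10 acts mainly on p38 and JNK. They are the dual-specificity phosphatases Dusp1, Dusp4, Dusp5, Dusp6 and Dusp10, the Sprouty genes Spry2 and Spry4, and the Sprouty-related genes Spred1 and Spred2. They were found by their symbols in a table of 54146 genes, and all 9 were present. Of them, 7 passed a filter on low counts over all libraries, as did 14067 genes in all, and Dusp10 and Spry4 did not. Dusp5 was chosen by its fall with treatment in these same data, so its treatment values are given as a description with no test.

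Expression was measured in small intestinal epithelium of female C57BL/6J mice fed a purified diet (AIN93G). One group was gavaged with 10 µg of indolo[3,2-b]carbazole (ICZ), an indole that binds the aryl hydrocarbon receptor (AHR), dissolved in corn oil; vehicle mice got the oil alone. Tissue was taken after 12 h, and the epithelium was freed by EDTA in 5 consecutive fractions, F1 to F5. ICZ gave 14 libraries (3 mice in F2 to F5 and 2 in F1) and vehicle gave 15 (3 mice in each fraction). Mice were 8 to 10 weeks old, every fractionated sample is labelled WT, and the labels do not say where along the crypt-villus axis a fraction lies.

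ERK, the last kinase of the Ras, RAF and MEK cascade, is switched on when receptors such as the EGF receptor bind their ligands, and in gut epithelium it helps to drive division in crypts and repair. Many of its brakes are themselves induced by ERK activity and so form a negative feedback. DUSP phosphatases remove the activating phosphates from MAP kinases, whereas Sprouty and Spred proteins act at the membrane to limit signalling from receptors to Ras and RAF. These data are transcript levels, and no phosphorylated ERK was measured.

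The promoters of Dusp1, Dusp5 and Dusp6, the 3 of the 7 tested members whose fitted levels differed most between F5 and F1, are printed for reference (RefSeq, GRCm38.p6, on the strand of the gene, from 250 bases before the start of transcription to 50 bases after it). Capitals mark the motifs found.
Dusp1, chr17:26508423-26508722, minus strand: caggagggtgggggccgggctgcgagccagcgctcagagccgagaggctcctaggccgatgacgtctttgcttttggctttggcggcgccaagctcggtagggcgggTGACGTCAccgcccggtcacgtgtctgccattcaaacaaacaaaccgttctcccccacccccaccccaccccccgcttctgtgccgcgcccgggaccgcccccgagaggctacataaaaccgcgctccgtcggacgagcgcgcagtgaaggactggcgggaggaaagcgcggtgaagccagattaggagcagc
Dusp5, chr19:53528895-53529194, plus strand: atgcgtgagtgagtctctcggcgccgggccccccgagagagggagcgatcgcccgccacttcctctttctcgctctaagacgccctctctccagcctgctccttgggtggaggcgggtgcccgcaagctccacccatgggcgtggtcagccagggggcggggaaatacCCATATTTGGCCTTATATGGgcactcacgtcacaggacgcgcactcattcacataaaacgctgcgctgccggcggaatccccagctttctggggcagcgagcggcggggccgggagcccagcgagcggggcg
Dusp6, chr10:99262981-99263280, plus strand: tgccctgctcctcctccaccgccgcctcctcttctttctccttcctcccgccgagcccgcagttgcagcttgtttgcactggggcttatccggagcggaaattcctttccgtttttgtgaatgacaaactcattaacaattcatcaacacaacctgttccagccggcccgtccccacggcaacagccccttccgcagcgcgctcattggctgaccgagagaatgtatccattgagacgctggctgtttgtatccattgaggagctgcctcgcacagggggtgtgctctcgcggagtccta

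RefSeq promoters were found for 7 of the 9 genes, all but Dusp4 and Spry4. Each was searched on both strands for 6 motifs: AP-1 (TGANTCA), the cyclic AMP response element CRE (TGACGTCA), an ETS site (CCGGAAG), the AHR site XRE (TNGCGTG), an EGR site (GCGGGGGCG) and the CArG box, to which serum response factor binds. Dusp1 held 1 CRE, which begins 143 bases before the start of transcription, and 1.79% of 32851 mouse promoters of this length held one. Dusp5 held 2 CArG boxes that lie end to end without overlap, beginning 82 and 72 bases before the start, and 1.63% of promoters held at least 1. The other 5 promoters held none of these letters in this window. AP-1, ETS, XRE and EGR motifs, which were in none of the 7, occurred in 7.81%, 8.86%, 5.07% and 2.91% of all promoters. A match is a description of the letters, not evidence that a factor binds.

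Gene reads per library numbered 4359673 to 7819837 (median 6351137). Levels are given as CPM, a gene's reads scaled to the normalized total of its library. Cyp1a1, the AHR target enzyme, stood at 8.33 to 102 CPM in ICZ libraries and at 0 to 0.19 CPM in vehicle libraries. Epithelial markers were abundant throughout (Epcam 1067 to 1530 CPM, Vil1 500.3 to 1288 CPM). The summed level of 5 endothelial markers had a median of 1.48 CPM (0.178 to 7.55 CPM). For 5 smooth muscle markers the median was 0.437 CPM (0 to 26.7 CPM) and for 5 fibroblast markers 1.62 CPM (0.251 to 111 CPM). The T cell marker Cd3e reached 36.2 CPM, the fibroblast marker Col1a1 17.9 CPM and the plasma cell marker Jchain 126 CPM in single libraries. The F5 library of ICZ replicate 1 stood apart, with 54.3% of its gene reads in its 10 most abundant genes against a median of 26.8%. Between F1 and F5 the levels of crypt and villus enterocyte genes also differed. All 10 crypt and proliferation genes were higher in F5 than in F1 in ICZ and vehicle mice (16.5% and 14.9% of all genes were). In both, 8 of 10 villus enterocyte genes were lower (16% and 13.2% of all genes were). In such bulk samples fewer cells of a type and less RNA per cell cannot be told apart.

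Across fractions the phosphatase genes went different ways. Dusp1 was low in F1 to F3 and several-fold higher in F4 and F5 in both treatments. Dusp5 was on average highest in F4 and F5 in both, and its difference in ICZ mice did not pass the test. Its values also chose it by treatment, so its calls below and any contrast between treatments in its fraction difference carry no support. Dusp6 was highest in F1 and lower in later fractions, and Spry2 was slightly higher in F5 of vehicle mice. Dusp4, Spred1 and Spred2 passed no test between fractions. Between F5 and F1 of ICZ mice, 2 of the 7 tested members passed edgeR's quasi-likelihood test at an adjusted p of 0.05, where 32.6% of all 13328 genes did. Dusp1 was higher (16.5% of all genes were) and Dusp6 was lower (16% of all genes were). In vehicle mice 4 of the 7 passed, where 28.1% of 13164 genes did: Dusp1, Dusp5 and Spry2 were higher (14.9% of all genes were) and Dusp6 was lower (13.2% of all genes were). How many of all genes separate without overlap between fractions was not counted, so such separations given below carry no support.

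**Figure D1:**
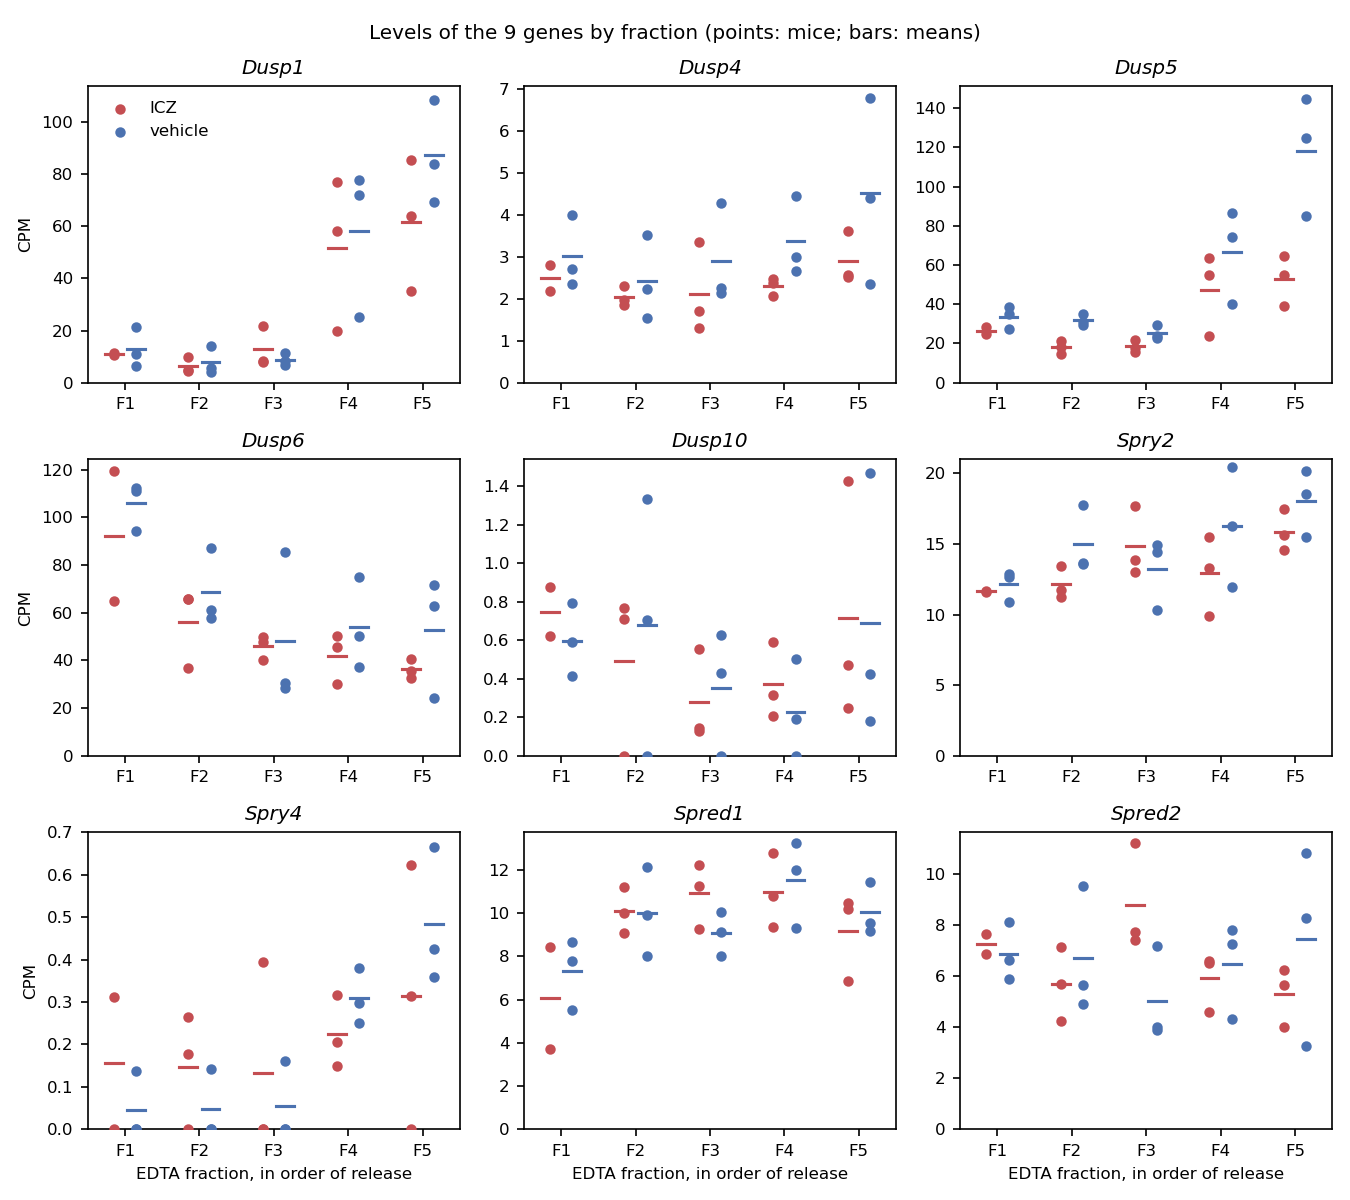
Levels of the 9 genes in CPM (vertical axis, from 0) in fractions F1 to F5 (horizontal axis), with 1 point per mouse and a bar at the mean, ICZ left of vehicle. Dusp1 and Dusp5 stand highest in F4 and F5 and Dusp6 in F1, and in F5 all 3 ICZ mice lie below all 3 vehicle mice for Dusp5 (39.1 to 64.8 against 85.1 to 145 CPM).

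Dusp1 encodes a nuclear phosphatase of p38, JNK and ERK and is a classic immediate early gene. Its gene model (ENSMUSG00000024190.6) lies at chr17:26505590-26562128 on the minus strand of GRCm38. In ICZ mice F5 held 35.4, 64.0 and 85.7 CPM and F1 held 10.5 and 11.4 CPM, without overlap. The log2 fold change of F5 over F1 was 2.08 (SE 0.29, adjusted p = 7.11e-05 by edgeR). Vehicle mice had 69.5, 84.0 and 109 CPM in F5 and 6.48, 11.1 and 21.3 CPM in F1, or 87.4 ± 19.8 and 13.0 ± 7.61 CPM on average (SD, n = 3 each). There too every F5 library lay above every F1 library, and the log2 fold change was 2.87 (SE 0.28, adjusted p = 2.52e-05 by edgeR).

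Most of the Dusp1 difference lay between F3 and F4. ICZ mice had 20.01, 58.4 and 77.2 CPM in F4 and 8.02, 8.35 and 21.9 CPM in F3, a log2 difference of 1.99 (SE 0.24, edgeR adjusted p = 0.00436). Vehicle mice had 25.3, 71.99 and 77.9 CPM in F4 and 8.16, 6.78 and 11.4 CPM in F3, a log2 difference of 2.67 (SE 0.29, edgeR adjusted p = 0.000508). Replicate 1 of each treatment was the lowest in F4, and in ICZ mice the F4 and F3 ranges overlapped. In ICZ mice Dusp1 was also lower in F2, with 4.99, 4.46 and 9.76 CPM, than in F1 (log2 difference -1.22, SE 0.33, edgeR adjusted p = 0.0346). The annotated Dusp1 model extends past the RefSeq start and overlaps Ergic1 on the other strand, and without a stated strand setting their reads cannot be told apart there. Ergic1 differed less between F5 and F1, by 0.75 in log2 in ICZ mice (edgeR adjusted p = 0.00193) and 0.51 in vehicle mice (edgeR adjusted p = 0.134).

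Dusp5 encodes a nuclear phosphatase that is specific for ERK and is itself induced by ERK signalling. Its gene (ENSMUSG00000034765.6) lies at chr19:53529109-53542431 on the plus strand, and the antisense gene AC137853.2, which overlaps it, had 0 reads. In ICZ mice Dusp5 had 39.1, 54.9 and 64.8 CPM in F5 and 28.2 and 24.95 CPM in F1. These ranges did not overlap, but the log2 difference of 0.91 (SE 0.35) did not pass edgeR's test (adjusted p = 0.0698). The ICZ F5 values are part of the contrast that chose Dusp5, so neither this test nor its alternatives stand apart from the choice. The difference passed with DESeq2 (adjusted p = 0.015), with no filter on low counts (adjusted p = 2.47e-05 by edgeR), without the mouse as a block (adjusted p = 0.0353) and without ICZ replicate 1 (adjusted p = 3.11e-05). Replicate 1 had the lowest Dusp5 in F5 and in F4, where the ICZ mice had 23.7, 63.5 and 55.1 CPM. Its F4 over F3 difference was 1.32 in log2 (SE 0.31, edgeR adjusted p = 0.277).

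Vehicle mice had more Dusp5 in F5, with 85.1, 125 and 145 CPM, than in F1, with 27.6, 35.1 and 38.4 CPM. The F5 values all exceeded the F1 values, by 1.80 in log2 (SE 0.16, edgeR adjusted p = 9.98e-07). The vehicle F5 values are likewise part of that contrast, so the same limit holds for this test. Between neighbouring fractions of vehicle mice Dusp5 rose in F4 over F3 (1.37 in log2, SE 0.16, edgeR adjusted p = 0.000153) and in F5 over F4 (0.84, SE 0.15, edgeR adjusted p = 0.0486).

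Dusp6 encodes the ERK-specific phosphatase of the cytosol and is a standard readout of ERK activity. The gene (ENSMUSG00000019960.8) lies at chr10:99263231-99267489, plus strand. Unlike Dusp1 it was lower in F5 than in F1. ICZ mice had 40.5, 32.7 and 35.7 CPM in F5 and 65.0 and 120 CPM in F1, and vehicle mice had 62.8, 71.5 and 24.3 CPM in F5 and 112, 94.4 and 111 CPM in F1. No F5 value reached any F1 value in either treatment. The log2 difference was -1.27 in ICZ mice (SE 0.29, edgeR adjusted p = 0.00517) and -1.09 in vehicle mice (SE 0.34, edgeR adjusted p = 0.0373). These calls rest on few mice: without ICZ replicate 2 the first had an adjusted p of 0.268, and the second had 0.289 without vehicle replicate 3, 0.0865 without vehicle replicate 1 and 0.148 without the mouse as a block (all by edgeR). The vehicle mice disagreed in F3, with 85.5 CPM in replicate 1 and 30.4 and 28.5 CPM in the others.

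Dusp4 encodes a nuclear phosphatase of ERK and JNK that is induced by ERK (ENSMUSG00000031530.6, chr8:34807297-34819894, plus strand). It was low, with 7 to 48 reads and 1.30 to 6.79 CPM per library. In F5 it ranged from 2.52 to 3.62 CPM in ICZ mice and from 2.34 to 6.79 CPM in vehicle mice, and in F1 from 2.19 to 2.81 and from 2.36 to 3.999 CPM. F5 and F1 overlapped in both treatments. The log2 differences of 0.30 in ICZ mice (edgeR adjusted p = 0.645) and 0.51 in vehicle mice (edgeR adjusted p = 0.366) were within their replicate error.

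Spry2, an inhibitor of Ras signalling downstream of receptors, lies at chr14:105891947-105896819 on the minus strand (ENSMUSG00000022114.5). It was the steadiest member, between 9.93 and 20.5 CPM in all libraries. In ICZ mice F5 held 14.5, 15.6 and 17.5 CPM and F1 held 11.6 and 11.7 CPM, a log2 difference of 0.34 (SE 0.19, edgeR adjusted p = 0.194). Vehicle mice had 15.5, 20.1 and 18.5 CPM in F5 and 10.9, 12.9 and 12.7 CPM in F1. Neither set overlapped, though the share of all genes without overlap was not counted. The vehicle log2 difference of 0.57 (SE 0.17) passed edgeR's test (adjusted p = 0.0182). It did not pass with no filter (adjusted p = 0.0632), without the mouse as a block (0.0577), without vehicle replicate 2 (0.151) or without vehicle replicate 3 (0.138).

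Spred1 and Spred2 bind Ras regulators at the membrane and block RAF activation. Spred1 (ENSMUSG00000027351.14, chr2:117121374-117182279, plus strand) held 3.72 to 13.3 CPM, and F5 over F1 was 0.51 in log2 in ICZ mice (SE 0.29, edgeR adjusted p = 0.190) and 0.47 in vehicle mice (SE 0.20, edgeR adjusted p = 0.0883). Spred2 (ENSMUSG00000045671.17, chr11:19924375-20024026, plus strand) held 3.26 to 11.2 CPM, with differences of -0.34 (SE 0.30, edgeR adjusted p = 0.411) and 0.05 (SE 0.33, edgeR adjusted p = 0.933). Neither gene passed the test in either treatment.

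**Figure D2:**
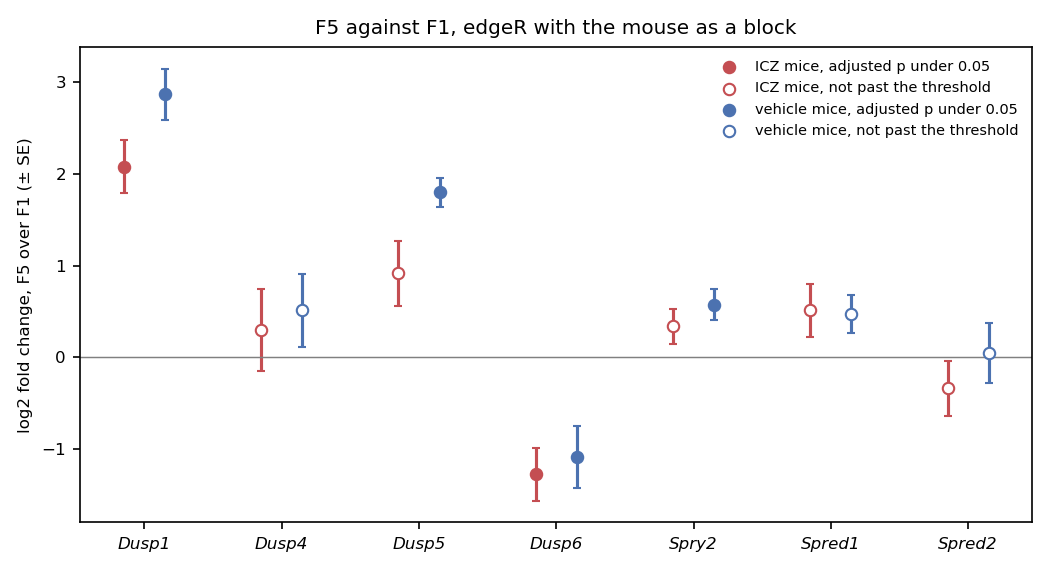
Log2 fold change of F5 over F1 (vertical axis, with the standard error) for the 7 tested members (horizontal axis), ICZ mice left of vehicle mice; filled points passed an adjusted p of 0.05 in edgeR. Dusp1 stands near 2.08 in ICZ mice and 2.87 in vehicle mice, and Dusp6 lies below 0 in both.

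Dusp10 encodes a phosphatase that acts mainly on p38 and JNK rather than ERK, and Spry4 encodes a further Sprouty inhibitor of Ras signalling. Dusp10 (ENSMUSG00000039384.8, chr1:184013302-184075636, plus strand) had 93 reads over the 29 libraries, from 0 to 11 in each, with 4 libraries at 0. Its pooled rate in F4 and F5 over F1 to F3 was 1.098 in ICZ mice (17 and 22 reads, exact 95% interval 0.547 to 2.17) and 0.94 in vehicle mice (20 and 34 reads, 0.513 to 1.68), so no difference was detectable at this depth. Spry4 (ENSMUSG00000024427.6, chromosome 18) had 38 reads in all, from 0 to 5 in each library, and 11 libraries were at 0, where 3 reads would be the limit that a count of 0 allows. In ICZ mice Spry4 had 11 reads in the 6 libraries of F4 and F5 and 8 reads in the 8 libraries of F1 to F3, a rate ratio of 1.95 (exact 95% interval 0.716 to 5.60). In vehicle mice the reads were 16 in 6 and 3 in 9 libraries, a ratio of 8.52 (2.44 to 45.7). Every F4 or F5 library of vehicle mice, at 0.25 CPM or more, exceeded every earlier one, at 0.16 CPM or less. That order rests on 2 to 5 reads against 0 or 1 read per library, and ICZ mice did not show it. These intervals cover counting error only, and the split between F3 and F4 was chosen with the other members' values known.

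Other neighbouring fractions gave few calls. In ICZ mice the members called by edgeR, of 7 tested, were 1 in F2 against F1 (9.36% of all genes), 0 in F3 against F2 (0.0075%, 2 members at an unadjusted p under 0.05), 1 in F4 against F3 (0.045%) and 0 in F5 against F4 (0.503%, 0 members at an unadjusted p under 0.05). In vehicle mice 0 of 7 members passed edgeR's test in F2 against F1 (0% of all genes did, and 2 members had an unadjusted p under 0.05) and 0 in F3 against F2 (0% of all genes, 1 member at an unadjusted p under 0.05). F4 against F3 had 2 (0.41% of all genes), and F5 against F4 had 1 (0.0684%). All of these calls were of Dusp1 or Dusp5. In vehicle mice the call in F5 against F4 and 1 of the 2 in F4 against F3 were of Dusp5. Those of Dusp5 carry no support, as its values chose it.

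Among transcripts induced through ERK signalling, more were higher than lower in F5. Of 16 listed, 14 were tested. In ICZ mice 4 were higher and 1 lower in F5 than in F1, where 16.5% and 16% of all genes were. The 14 had a median log2 difference of 1.49 against 0.04 over all genes. There the cell cycle gene Ccnd1 (1.98, SE 0.18), Egr1 (2.02, SE 0.52) and Ier2 (1.53, SE 0.41) rose, and the survival gene Mcl1 fell by 0.55 in log2 (SE 0.12). In vehicle mice 10 were higher and 0 lower (14.9% and 13.2% of all genes were), with a median of 1.13 against 0.02 over all genes. The immediate early transcription factors Egr1 (3.30, SE 0.29) and Fos (1.64, SE 0.15) were among them, as were Ier2 (2.15, SE 0.16) and Junb (1.03, SE 0.12), with edgeR adjusted p-values of 2.13e-07 to 3.04e-05.

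Upstream, ligand genes were higher in F5 of vehicle mice, and no core kinase gene was. Of 8 tested genes of the EGF receptor family and its ligands, 0 were higher and 2 lower in F5 than in F1 in ICZ mice. The 2 were the receptor genes Erbb3 (-0.65) and Erbb2 (-0.35), and of all genes 16.5% were higher and 16% lower. In vehicle mice 4 were higher and 1 lower, where 14.9% and 13.2% of all genes were. The higher ones were the ligands Areg (1.67 in log2, edgeR adjusted p = 2.01e-05), Hbegf (2.33, edgeR adjusted p = 2.88e-05) and Ereg (2.60, edgeR adjusted p = 0.000944) and the receptor Egfr (0.59, edgeR adjusted p = 0.0106). Among 18 genes of the core cascade from Ras to ERK 0 were higher in either treatment. Of the 18, 7 were lower in ICZ mice and 6 in vehicle mice, where 16% and 13.2% of all genes were. Mapk3, which encodes ERK1, fell by 0.65 in ICZ mice and by 0.72 in vehicle mice in log2, and the scaffold gene Ksr1 fell by 0.94 and by 0.75.

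Other brakes moved both ways. Of 14 tested (Errfi1, Lrig1, Cbl and others), 2 were higher and 3 lower in F5 than in F1 in ICZ mice (16.5% and 16% of all genes were), and 2 were higher and 1 lower in vehicle mice (14.9% and 13.2% of all genes), so these shares lay near those of all genes. The RAF inhibitor Pebp1 (0.61 in ICZ mice, 0.58 in vehicle mice) and Sh3bp4 (2.10 and 1.27) were higher in both. Errfi1, an inhibitor of the EGF receptor kinase, fell by 0.81 in log2 in ICZ mice. Of 6 tested relatives of the members, Dusp16, a JNK and p38 phosphatase, was lower in both (-0.76 in ICZ mice, -0.54 in vehicle mice), while Dusp3 (1.12) and Dusp8 (0.71) were higher in vehicle mice. Of 9 p38 and JNK kinase genes 1 was higher in each treatment, Map2k6 (1.48 in ICZ mice, 1.20 in vehicle mice), and 4 were lower in ICZ mice and 2 in vehicle mice.

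Genes known to be induced by tissue dissociation moved with Dusp1 and Dusp5. Of 11 such genes, among them Jun, Atf3, Hspa1a and Hspa1b, 10 were tested. In F5 against F1 of ICZ mice 7 were higher and 1 lower (median log2 1.43), where 16.5% and 16% of all genes were. In vehicle mice 9 were higher and 0 lower (median log2 2.67), where 14.9% and 13.2% of all genes were. The summed level of the 11 genes was 1252 to 2192 CPM in F5 and 990 to 1272 CPM in F1 of ICZ mice. In vehicle mice it was 1919 to 3219 CPM in F5 and 778 to 1137 CPM in F1. In F4 against F3, 3 stress genes were higher in ICZ mice and 8 in vehicle mice, where 0.045% and 0.41% of all genes were called. The part of dissociation in the higher levels of Dusp1 and Dusp5 was not tested, nor was that of the fractions' cell content.

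**Figure D3:**
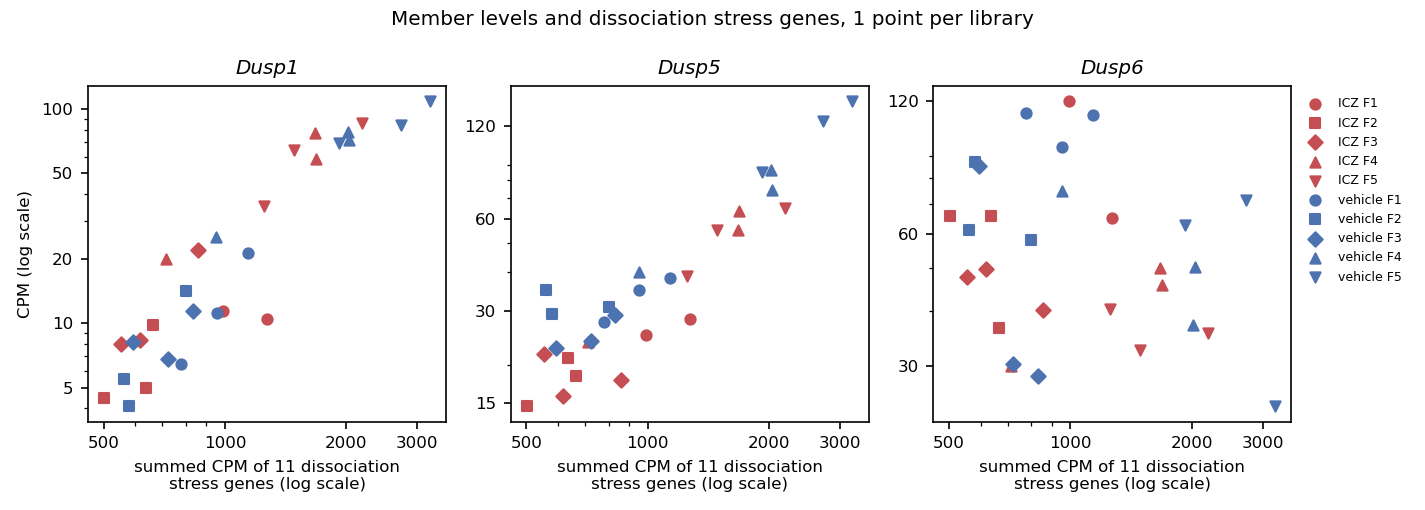
CPM of Dusp1, Dusp5 and Dusp6 (vertical axes, log scale) against the summed CPM of 11 dissociation stress genes (horizontal axis, log scale), 1 point per library, coloured by treatment and shaped by fraction. The 9 libraries with the highest summed stress CPM are all from F4 or F5 and hold the 9 highest levels of Dusp1 (from 58.4 CPM) and of Dusp5 (from 54.9 CPM), while Dusp6 shows no such order.

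Over the 29 libraries, which come from 6 mice, the genes whose log2 CPM was most like that of Dusp1 were Fosb (Pearson r = 0.973), Jun (0.973) and Egr1 (0.966), all immediate early genes. For Dusp5 they were Rnd3 (0.956), the EGF receptor ligand gene Hbegf (0.933) and Brd2 (0.928). Dusp1 and Dusp5 correlated with each other at 0.861. Dusp6 was most like Tmcc3 (0.893), H2-D1 (0.890) and the clone-named RP23-424C4.5 (0.883), and it correlated at -0.386 with Dusp1 and at -0.195 with Dusp5. The closest genes to Spred1 were Cd44 (0.844), Top2b (0.827) and Cebpd (0.822), those to Spry2 were Tra2a (0.795), Gm2a (0.786) and Ccdc191 (0.783), and those to Spred2 were Hacl1 (0.789), Gpn2 (0.788) and Fat1 (0.787). Dusp4, with few reads, reached 0.693 with Mepce, 0.669 with Taf7 and 0.664 with Ier3. Fractions of a mouse share the animal, so these values describe likeness and carry no test.

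ICZ was compared with vehicle to ask what an AHR ligand changed in each fraction. On reads of F2 to F5 added per mouse, Dusp5 had 25.2, 39.7 and 37.2 CPM in ICZ mice and 43.8, 65.4 and 76.0 CPM in vehicle mice. Every ICZ value lay below every vehicle value, and the log2 difference was -0.86 (SE 0.23). Matched by replicate number, a pairing that was not established, the 3 differences were -0.80, -0.72 and -1.03. Dusp5 was selected for its fall with ICZ in these data, so these values and those of single fractions describe it and support nothing.

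By fraction Dusp5 differed most in F5, where ICZ mice had 39.1 to 64.8 CPM and vehicle mice 85.1 to 145 CPM, a log2 difference of -1.14 (SE 0.25). In F2 ICZ mice had 21.0, 14.6 and 18.3 CPM and vehicle mice 29.3, 35.0 and 31.0 CPM (-0.85, SE 0.17), and in F3 ICZ mice had 21.7, 15.8 and 17.8 CPM and vehicle mice 22.6, 23.9 and 29.2 CPM (-0.46, SE 0.17). The groups did not overlap in F2, F3 and F5, though the share of all genes without overlap was not counted. They overlapped in F4 (23.7 to 63.5 against 40.1 to 86.3 CPM, log2 difference -0.51, SE 0.44) and in F1 (24.95 to 28.2 against 27.6 to 38.4 CPM, -0.34, SE 0.19).

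Stromal markers moved with the F5 contrast. The summed level of 5 fibroblast markers was 13.4 to 111 CPM in F5 of ICZ mice and 1.60 to 7.78 CPM in F5 of vehicle mice. For 5 endothelial markers it was 2.12 to 7.55 CPM in ICZ mice and 1.44 to 1.84 CPM in vehicle mice, and for 5 smooth muscle markers 1.87 to 26.7 CPM in ICZ mice and 0 to 1.56 CPM in vehicle mice. None of these sums overlapped, and all 3 ICZ libraries stood above all 3 vehicle libraries for 3 of the fibroblast, 2 of the endothelial and 1 of the smooth muscle genes taken singly. How many of all genes separate in this way was not counted. Acta2, the smooth muscle actin gene, was at 0 in F5 of vehicle mice and at 0.855, 0.874 and 11.3 CPM in F5 of ICZ mice. Its median over the 29 libraries was 0 CPM. ICZ replicate 3 held the top of the fibroblast and smooth muscle ranges in F5, where the median ICZ sums were 13.4 and 6.27 CPM. Over F2 to F5 added per mouse the fibroblast sums overlapped, with 3.70, 4.87 and 35.1 CPM in ICZ mice and 1.34, 0.932 and 3.998 CPM in vehicle mice. The part of stromal cells in the F5 difference of Dusp5 was not tested.

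None of the other members passed. On the summed reads 0 of the other 7 tested members were called by edgeR, 0 had an unadjusted p under 0.05 and 0 were called by DESeq2, where 0% of 15497 genes were called by edgeR. With the replicate number as a block 0 of the 7 were called, where 1.49% of all genes were. The log2 differences were -0.35 for Dusp1 (SE 0.46), -0.49 for Dusp4 (SE 0.26), -0.33 for Dusp6 (SE 0.24), -0.27 for Dusp10 (SE 0.57), -0.16 for Spry2 (SE 0.16), and 0.04 for both Spred1 (SE 0.14) and Spred2 (SE 0.24). The smallest adjusted p with the block was that of Dusp1 (log2 difference -0.40, SE 0.099, edgeR adjusted p = 0.0762). Dusp1 was lower in ICZ mice in all 3 same-numbered comparisons, though a pairing was not established. For none of the 7 was a change detected, and for none was it shown to be absent. Spry4, below the filter, had 17 reads in ICZ mice and 18 in vehicle mice over F2 to F5, a rate ratio of 1.01 (exact 95% interval 0.489 to 2.08).

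Dusp1 had 15.3, 37.2 and 45.3 CPM in the summed fractions of ICZ mice and 25.9, 43.2 and 55.5 CPM in those of vehicle mice. The log2 differences within replicate numbers were -0.77, -0.22 and -0.30, and the groups overlapped. Dusp4 had 2.63, 2.49 and 2.15 CPM in ICZ mice and 2.20, 3.86 and 4.07 CPM in vehicle mice, and Dusp6 had 46.5, 48.5 and 41.2 CPM in ICZ mice and 80.1, 53.7 and 37.8 CPM in vehicle mice. Both overlapped. Spry2 ran from 12.4 to 16.5 CPM in ICZ mice and from 13.0 to 18.4 CPM in vehicle mice.

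Within single fractions 0 of the other 6 tested members passed edgeR's test in any of the 5 fractions, and DESeq2 called 0. Of all genes edgeR called 0.0324% in F1, 0.0165% in F2, 0.00815% in F3, 0% in F4 and 0% in F5. Only Spred2 in F3 had an unadjusted p under 0.05 (0.0163), with 11.2, 7.42 and 7.74 CPM in ICZ mice and 7.16, 3.89 and 4.01 CPM in vehicle mice (log2 difference 0.80, SE 0.29, edgeR adjusted p = 0.468). Without vehicle replicate 1 Spred2 (1.15, edgeR adjusted p = 0.0335) and Dusp6 (0.63, edgeR adjusted p = 0.0187) were called in F3, in a fit that called 3.96% of all genes. Other sets that did not overlap were Dusp4 in F4, with 2.06 to 2.48 CPM in ICZ mice and 2.66 to 4.45 CPM in vehicle mice, and Spry2 in F2, with 11.2 to 13.4 CPM in ICZ mice and 13.5 to 17.8 CPM in vehicle mice. Neither passed the test (edgeR adjusted p = 0.999 and 0.535). With 3 mice in each group an exact test cannot give a p under 0.1. The share of all genes without overlap was not counted, so these sets carry no support.

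**Figure D4:**
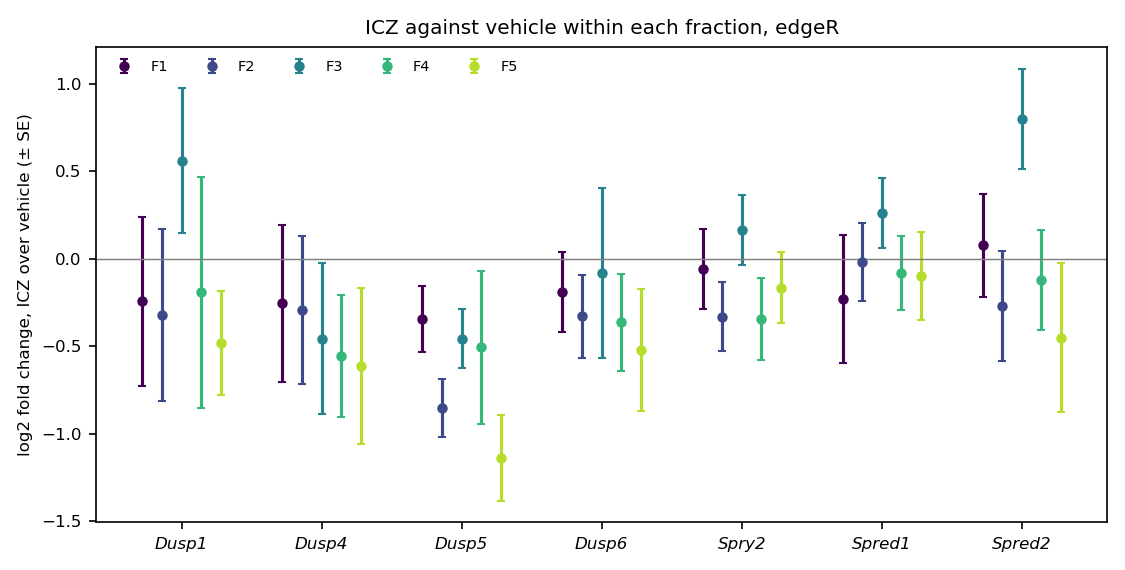
Log2 fold change of ICZ over vehicle (vertical axis, with the standard error) in F1 to F5 for the 7 members tested there (horizontal axis). Dusp5 lies below 0 in all 5 fractions, from -0.34 in F1 to -1.14 in F5, and Spred2 in F3, at 0.80, is the highest point.

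Whether the ICZ difference changed from fraction to fraction was tested for all genes with the mouse as a block. Of the 6 members tested besides Dusp5 0 passed edgeR's test, 0 had an unadjusted p under 0.05 and 0 passed in DESeq2, where 0.00711% of 14067 genes passed in edgeR. Dusp1 passed only with no filter on low counts (edgeR adjusted p = 0.0451, against 0.927 with it), in a fit that called 331 of 31221 genes. Leaving out the F5 library of ICZ replicate 1, an alternative added after the data were seen, called 0 of them as well.

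The other genes of the pathway gave no call by ICZ on the summed reads in edgeR. The 15 tested transcripts induced through ERK had a median log2 difference of -0.35, against 0.01 over all genes, the 9 tested genes of the EGF receptor family and ligands one of -0.12, and the 18 core cascade genes one of 0.00. The ligands Areg (-0.55, SE 0.13, edgeR adjusted p = 0.846) and Ereg (-0.74, SE 0.21, edgeR adjusted p = 0.846) had the smallest unadjusted p-values of their list, 0.00204 and 0.00668. The dissociation stress genes had a median of -0.52, with a summed level of 739, 1134 and 1311 CPM in ICZ mice and 1004, 1545 and 1787 CPM in vehicle mice, and replicate 1 was lowest in both. These values stand beside those of Dusp5, and the part of dissociation stress or of ERK activity in its lower level in ICZ mice was not tested.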

How the data were processed

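RNA of 29 epithelial fractions was sequenced from 3' ends. The authors deposited raw read counts per gene. FastQC 0.11.2, BWA 0.7.17-r1188, SAMtools 1.10 and HTSeq 0.11.2 are named per the submitters' processing notes; annotation release, strand setting and any molecular identifiers were not given in the sources used here. The 5 summary lines that name no gene held 38.4% to 48.4% of each library's counts and were left out. Positions are from GENCODE M21 (GRCm38); the IDs of Dusp1 and Spry4 matched only without their version.

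The members and gene lists were chosen with earlier results of these data known. Named genes are all members and up to 4 genes of smallest p per list and comparison; pathway genes given beyond these, and Ergic1 and Cyp1a1, were chosen after their values were seen. Tests used edgeR 4.0.16 (R 4.3.3; filterByExpr, TMM, robust quasi-likelihood F test, Benjamini-Hochberg adjustment over all genes tested, threshold 0.05), and DESeq2 1.42.0 as an alternative. The scripts were tested on simulated data. CPM used TMM library sizes, and log2 CPM a prior count of 2. The 3' counts are not compared between genes. ICZ against vehicle used F2 to F5 summed per mouse, or single fractions; fractions were compared with the mouse as a block, and ICZ replicate 3, without F1, entered only through F2 to F5. Ratios of pooled reads have exact 95% intervals.

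Same-numbered ICZ and vehicle mice deviated together from their group means in the F2 to F5 sums (r = 0.381, 0.247 and 0.472, against -0.424 to -0.0248 for different numbers). Deviations of the mice of a group cancel out, so these values depend on each other and do not establish a pairing. The labels give a replicate number and a further number after WT, and do not say what the latter stands for. The number after WT is shared by the ICZ and vehicle mice of replicate 2 and of replicate 3. It differs between those of replicate 1. The replicate block and same-numbered differences rest on the replicate numbers. Replicates of a group differed by more than sampling noise (chi-square per degree of freedom 4.74 to 96.1). Depth was 4359673 to 7819837 gene reads, and reads are not independent molecules, so intervals cover counting error only.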

Additional observations from a re-analysis of the deposited data

How the results depend on the processing

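Of 599 alternative values for single members, 552 were unchanged, 8 lost and 6 gained a call, and 33 changed sign, 1 of them called (Dusp6 in F3 without vehicle replicate 1). Unchanged means the same direction and the same side of the threshold. For Dusp5 in ICZ against vehicle the threshold was not used. There it means the same direction and a log2 difference within the replicate SD of the reported one. Dusp5 stayed lower with ICZ throughout. Members called in F5 against F1 were 2 in ICZ mice (1 to 3 with a mouse left out) and 4 in vehicle mice (2 without the mouse as a block, 2 to 3 with a mouse left out); using ICZ replicates 1 and 2 only is the same fit as leaving out ICZ replicate 3. In ICZ against vehicle they were 0, except 2 in F3 without vehicle replicate 1 (range 0 to 2), and ICZ by fraction gave 1 with no filter. With the replicate block no call changed for any member other than Dusp5, whose treatment contrast carries no test. All genes called depended more on the settings: with no filter 36 (F2 to F5 summed), 57 (F1), 351 (F2), 221 (F3), 26 (F4), 37 (F5) and 331 (ICZ by fraction); with DESeq2 13, 18, 125, 12, 4, 5 and 4; with the replicate block 231, 45, 221, 23, 5 and 8; ICZ by fraction 0 without the mouse block and 2 without the F5 library of ICZ replicate 1; against 0, 4, 2, 1, 0, 0 and 1 as reported. With a mouse left out these ran over 0 to 3, 1 to 22, 0 to 267, 0 to 498, 0 to 1, 0 to 1 and 0 to 5, and F5 against F1 over 1098 to 4987 in ICZ mice (4339 with all, 5404 without only the F5 library of ICZ replicate 1) and 886 to 4215 in vehicle mice (3703 with all). Fold changes that changed sign did so with a mouse left out, over these log2 ranges: on the sums Dusp10 -0.63 to 0.31, Spred1 -0.065 to 0.10 and Spred2 -0.20 to 0.25; in F1 Dusp1 -0.58 to 0.33, Dusp6 -0.71 to 0.17, Spred1 -0.98 to 0.20 and Spred2 -0.016 to 0.21; in F2 Dusp1 -0.80 to 0.41, Dusp4 -0.53 to 0.061, Spred1 -0.15 to 0.13 and Spred2 -0.45 to 0.060; in F3 Dusp1 -0.10 to 0.82 and Dusp6 -0.34 to 0.63; in F4 Dusp1 -0.59 to 0.21, Spred1 -0.21 to 0.032 and Spred2 -0.34 to 0.034; in F5 Spred1 -0.18 to 0.037; in F5 against F1 of vehicle mice Dusp4 -0.058 to 1.12 and Spred2 -0.51 to 0.66. The replicate block also turned Dusp1 in F1 (0.35) and Dusp6 in F3 (0.079), and no filter turned Spred1 in F2 (0.0076). The causes were not tested. With 3 mice a group, and 2 in F1, differences of low genes such as Dusp4, Dusp10 and Spry4 were not detectable unless large.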

Other observations

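One sample, labelled with no treatment and no fraction, held 7484796 gene reads and entered no comparison. Scaled to its total only, it had 37.7 CPM of Dusp1, 64.3 CPM of Dusp5, 55.0 CPM of Dusp6, 13.4 CPM of Spry2, 11.8 CPM of Spred1, 5.88 CPM of Spred2 and 3.74 CPM of Dusp4. Each value lay within the range of the 15 vehicle libraries scaled the same way, as did Dusp10 (3 reads) and Spry4 (2 reads).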
